A study of Anser cygnoides with 9 samples.

Results

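Cultured goose granulosa cells given an agonist of the gonadotropin-releasing hormone (GnRH) receptor were compared with cells of the same culture system that received no analogue. The comparison held 6 of the 9 libraries of the study, 3 with the agonist and 3 blank, and 774 of the 1371 genes listed in the deposited table, namely those with a level of 1 TPM or more in at least 3 of these 6 libraries. TPM, the unit of the table, is a share of a library's transcripts corrected for their length. The granulosa cells came from ovaries of Sichuan white geese (Anser cygnoides) aged 40 weeks, taken 2 hours before laying, from follicles of the preovulatory stage and of the pre-hierarchical stage (4 to 12 mm); the tissue label reads small and large yellow follicles. The agonist was alarelin acetate, a peptide analogue of GnRH, at a concentration chosen as optimal in a series that also ran proliferation assays; neither it nor the exposure time is given in the sources used here. The blank cells carry the treatment label control, and whether they received a vehicle is not stated. The other 3 libraries came from cells given the antagonist cetrorelix acetate, and they entered the model to help estimate the spread between libraries. No label ties the libraries of a group to separate birds or cultures, so every p-value below measures only how these libraries spread, and that spread may be technical.

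GnRH is best known as the hypothalamic peptide that drives gonadotropin release from the pituitary. Its receptor couples through Gq to phospholipase C, calcium and protein kinase C, and further to mitogen-activated protein kinases and early transcription factors such as EGR1, and the receptor has also been described in ovarian cells. Granulosa cells surround the oocyte, respond to follicle-stimulating and luteinizing hormone, and in preovulatory follicles of birds make most of the follicle's progesterone.

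The identity of the cells could be checked on few genes. Of 24 granulosa cell markers, 3 were in the table, FST, EMX2 and HSD17B1, and the other 21 were not analysed here. Their summed level was 41.2 to 50.0 TPM in the agonist and 50.1 to 55.1 TPM in the blank libraries, nearly all of it from follistatin (FST). For other cells, 1 of 19 theca markers (ENG), 1 of 12 endothelial markers (CDH5), 1 of 13 germ cell markers (ZP1) and 0 of 15 erythroid and 0 of 11 surface epithelium markers were listed, with ENG at or under 1.59 TPM, ZP1 at or under 0.452 TPM and CDH5 at or under 0.121 TPM in these 6 libraries. ENG is not particular to theca cells, so its level says little about them. Of 18 immune cell markers, 3 were listed (C1QA, C1QB and CD4), and their summed level was 1.69 to 3.51 TPM with the agonist and 0.405 to 0.752 TPM in blank cells. The antagonist libraries spanned 0.425 to 2.57 TPM in this sum. Of the 3 markers, only C1QA, at or under 1.97 TPM, did not overlap between agonist and blank. CD4 itself was listed at 0 in 2 agonist and 2 blank libraries. In bulk libraries, fewer cells of a type and less RNA per cell cannot be told apart.

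The listed genes held 2.88% to 3.26% of each library's whole TPM, and the number of reads behind them is unknown. The listed TPM summed to 29842.5, 31031.9 and 28759.5 in agonist replicates 1, 2 and 3 and to 31764.3, 32645.0 and 32186.7 in blank replicates 1, 2 and 3. The groups did not overlap in this sum, which averaged 29878 ± 1137 with the agonist and 32199 ± 440 in blank cells (mean ± SD, n = 3 each; two-sided exact permutation test, p = 0.1, the smallest p that 3 against 3 libraries allow). The mitochondrial import chaperone TIMM10, the most abundant listed transcript at 2351 to 3346 TPM, had a mean difference, agonist minus blank, of -348 TPM. That of the transcription factor CEBPD was -218 TPM and that of the prolyl isomerase PPIA was -211 TPM. ATP5IF1, the inhibitor of the mitochondrial ATP synthase, had the largest difference in the other direction at 210.5 TPM. None of these genes passed the test described next.

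No gene differed between agonist and blank cells beyond the spread between libraries after adjustment. In limma, 0 of 774 genes (0%) had an adjusted p under 0.05, the smallest being 0.164, and 101 genes (13%) had an unadjusted p under 0.05, of which 9 (1.16%) were higher and 92 (11.9%) lower with the agonist. Among genes at 5 TPM or more in a group, those with the largest fold change above blank were CEND1, a protein of cell cycle exit and neuronal differentiation, and HYPK, a chaperone-like partner of an N-terminal acetyltransferase. The transcript with the smallest p was that of SF3B5, a subunit of the splicing complex that recognizes the branch point, which was lower in every agonist library than in every blank library. All 3 agonist libraries lay above all 3 blank libraries for 11 genes (1.42%) and below them for 84 genes (10.9%). The whole set leaned the same way: 583 genes (75.3%) had a log2 fold change under 0 and 191 (24.7%) above 0, with a median of -0.08 on the scale of log2(TPM + 1). With quantile normalization, that median was 0.02, and 43 genes were then higher and 41 lower at an unadjusted limma p under 0.05. The lean to lower values thus depended on the scaling. Quantile normalization gives all libraries the same distribution over the tested genes. It would also remove a real shift shared by most genes, so the balance under it is no test of the lean.

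**Figure D1:**
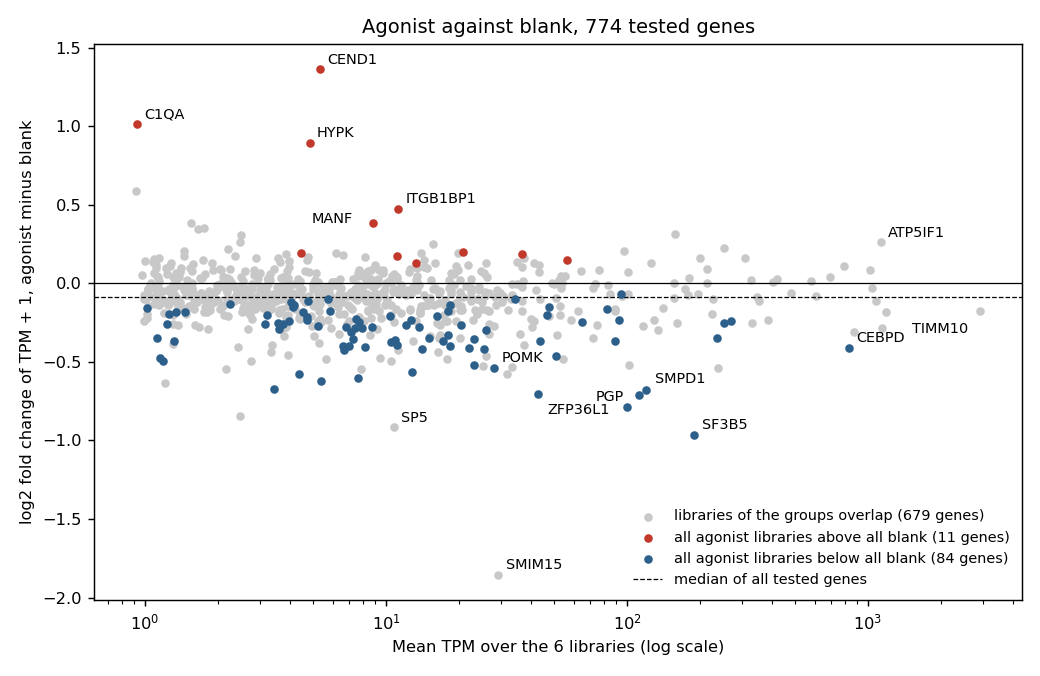
Log2 fold change of TPM + 1, agonist minus blank, against the mean TPM of the 6 libraries on a log axis, one point per tested gene. Red and blue points are the 11 and 84 genes whose agonist libraries all lay above or below all blank libraries, and the dashed line is the median of -0.08.

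The precision of the comparison was set by 3 libraries a group. From a gene's fold change to either end of its unadjusted 95% interval, the median distance was 0.25 on the log2 scale, or 1.19-fold. For 749 genes (96.8%) the interval lay within a 2-fold change in either direction, and for 591 genes (76.4%) within 1.41-fold. A fold change on the scale of TPM + 1 understates changes of genes with low values, and 345 of the 774 genes averaged under 5 TPM. The median log2 fold change was -0.07 in these and -0.09 among 256 genes between 5 and 20 TPM. It was -0.10 among 121 genes between 20 and 100 TPM and -0.09 among 52 genes above 100 TPM. On this scale the medians were of like size, which may stand for a larger relative change in TPM in the lowest band. Above 0 were 18 of the 52 genes above 100 TPM, against 89 of 345, 59 of 256 and 25 of 121 in the lower bands.

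Among the genes above blank, CEND1 was at 9.67, 8.19 and 6.47 TPM in agonist replicates 1, 2 and 3 and at 1.64, 3.12 and 2.97 TPM in blank replicates 1, 2 and 3. The groups did not overlap. The log2 fold change of 1.36 ± 0.34 (SE) had a 95% interval of 0.61 to 2.11 and an adjusted p of 0.249 in limma. The antagonist libraries spanned 1.74 to 7.06 TPM and overlapped both groups. HYPK was at 5.78, 4.49 and 9.73 TPM with the agonist and 2.78, 2.56 and 3.61 TPM in blank cells, so its groups also stood apart, while the agonist libraries differed by more than 2-fold among themselves (log2 fold change 0.90 ± 0.27, limma, adjusted p = 0.251). The antagonist libraries were also all above the blank libraries for HYPK, at 5.43, 4.76 and 10.04 TPM. ITGB1BP1, which binds the cytoplasmic tail of beta-1 integrin, was at 10.7, 14.9 and 14.3 TPM against 10.1, 8.72 and 8.88 TPM, and agonist replicate 1 was close to blank replicate 1 (log2 fold change 0.47 ± 0.13, limma, adjusted p = 0.249). Its antagonist libraries, at 16.2, 13.7 and 16.1 TPM, likewise lay above every blank library. In the RefSeq annotation of the Taihu goose assembly ITGB1BP1 overlaps CPSF3, and CEND1 overlaps an unnamed locus; no source used here says whether the authors' quantification used strand, so reads of overlapping genes may not be told apart.

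MANF, a secreted factor of the endoplasmic reticulum stress response, was nearly level across the agonist libraries at 10.4, 9.93 and 9.77 TPM and ranged from 6.16 to 9.21 TPM in blank cells (log2 fold change 0.38 ± 0.12, limma, adjusted p = 0.251). Its antagonist libraries, at 9.86 to 11.4 TPM, also lay above every blank library. For HYPK, ITGB1BP1 and MANF the antagonist was set against the same blank libraries that the genes were chosen against. Its values there are no separate evidence. The PDZ-domain protein TAX1BP3 was at 183, 144 and 202 TPM against 136, 131 and 154 TPM, and ATP5IF1 at 1356, 1058 and 1296 TPM against 963, 1040 and 1076 TPM. In both, agonist replicate 2 lay within the range of the blank libraries and the other two agonist libraries lay above it. The same held for the membrane-remodelling subunit CHMP4B (log2 fold change 0.25) and the late endosomal GTPase RAB7A (0.23), while all agonist libraries exceeded all blank ones for the telomere protein TERF2IP (0.20). The proteasome assembly chaperone PSMG1 was at 0.19. Adjusted p-values in limma were 0.312 or more for these last 6 genes.

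Among the genes below blank, SF3B5 was at 131, 127 and 121 TPM in agonist replicates 1, 2 and 3, a spread of a few percent, and at 342, 198 and 223 TPM in blank replicates 1, 2 and 3. Its log2 fold change was -0.96 ± 0.17 (limma, adjusted p = 0.164) with a 95% interval of -1.35 to -0.58. The antagonist libraries, at 152 to 190 TPM, lay between the groups. POMK, a kinase that modifies the sugar chain of dystroglycan, was at 21.4, 27.0 and 20.3 TPM against 35.2, 30.9 and 34.3 TPM (log2 fold change -0.54 ± 0.12, limma, adjusted p = 0.249). The phosphoglycolate phosphatase PGP was at 76.3, 110.5 and 69.3 TPM against 112, 162 and 144 TPM, so agonist replicate 2 nearly reached blank replicate 1 (log2 fold change -0.71 ± 0.18, limma, adjusted p = 0.249). CHAMP1, which helps align chromosomes on the spindle, was low in all agonist libraries at 3.08 to 4.57 TPM, against 6.06 to 7.31 TPM in blank cells. Among genes at 5 TPM or more in a group, the remaining ones of smallest p in this direction, each at a limma adjusted p of 0.249, were LHFPL5 (log2 fold change -0.58), the fatty acid amide hydrolase FAAH2 (-0.40), the endoplasmic reticulum protein JMJD8 (-0.71), the calcium-binding protein CABP2 (-0.57), R3HDM4 (-0.42) and IRF9 (-0.60), the DNA-binding subunit of the type I interferon response complex. In each, agonist replicate 2 was the highest of the agonist libraries.

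**Figure D2:**
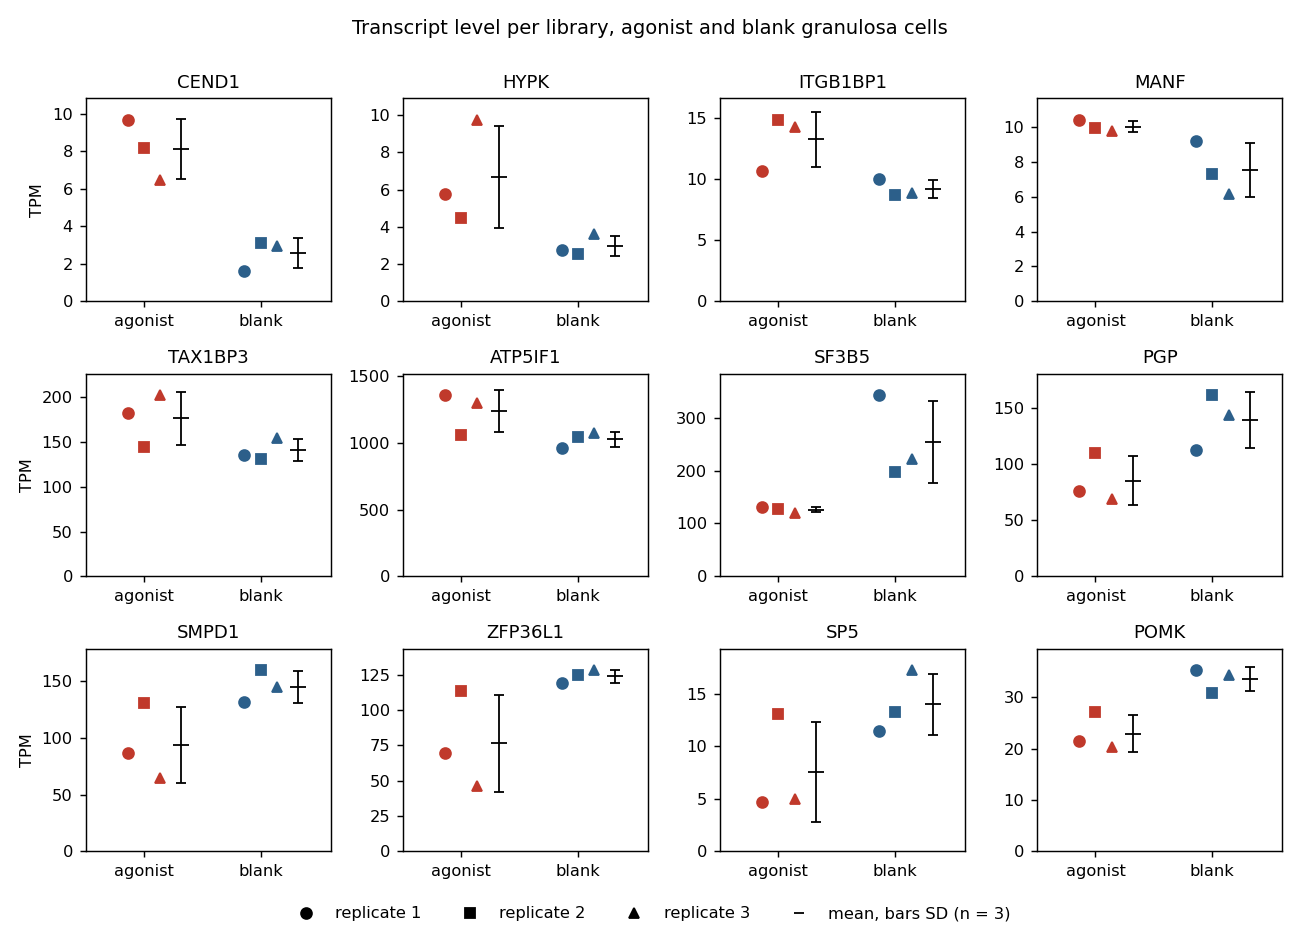
TPM per library for 12 genes, agonist in red and blank in blue, with symbols for replicates 1 to 3 and black bars for mean and SD (n = 3). In the bottom row, agonist replicate 2 is the agonist library nearest to the blank libraries, while the SF3B5 values of the agonist libraries lie together at 121 to 131 TPM.

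Agonist replicate 2 differed from the other agonist libraries across many genes. The median absolute difference in log2(TPM + 1) was 0.18 between agonist replicates 2 and 1 and 0.16 between replicates 2 and 3, but 0.10 between agonist replicate 2 and blank replicate 3 and 0.12 between it and blank replicate 2. Agonist replicates 1 and 3 differed by 0.13 from each other and by 0.15 and 0.16 from blank replicate 3. By correlation, agonist replicate 1 was as near to blank replicate 3 (Pearson r = 0.991) as to agonist replicate 3 (0.990). On the first principal component, which took 38.2% of the variance, agonist replicates 1 and 3 scored 4.17 and 5.23 and agonist replicate 2 scored -1.25, beside -1.20 and -2.30 for blank replicates 3 and 2; blank replicate 1 was at -4.66. Relative to the mean of the blank libraries, the median gene was at -0.15 in agonist replicate 1, -0.08 in replicate 3 and -0.01 in replicate 2 on the log2 scale. Blank replicate 1 also stood apart, at a median of 0.18 above the mean of the agonist libraries against 0.04 for each of the other two blank libraries. Its median absolute difference was 0.19 from blank replicate 2 and 0.16 from blank replicate 3, much like that of agonist replicate 2 within its group. By the median gene, agonist replicate 2 and blank replicate 1 each lay above the others of their group, and on the first component each lay below them. The description labels place both on flow cell H77KGDMXX. A part of the flow cell in this was not tested.

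**Figure D3:**
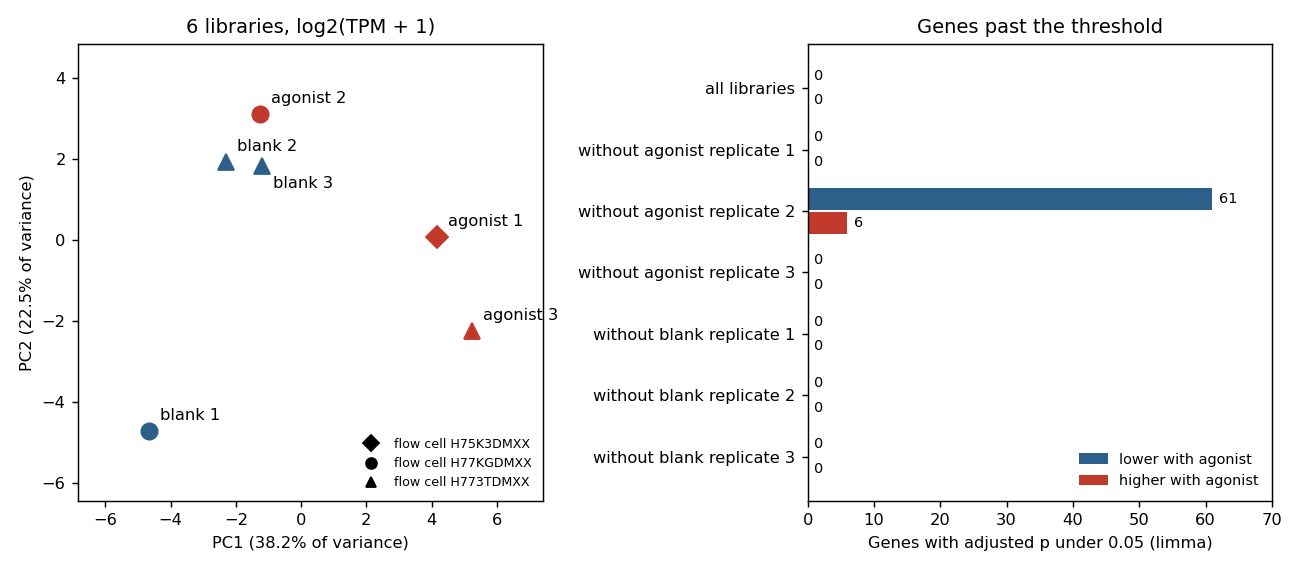
Left, the first and second principal components of log2(TPM + 1) for the 6 libraries, with a symbol for each flow cell; agonist replicate 2 lies beside blank replicates 2 and 3. Right, the number of genes with a limma adjusted p under 0.05 for all libraries and without each of the 6 libraries; 61 genes were lower and 6 higher without agonist replicate 2, and 0 in the other fits drawn.

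Without agonist replicate 2, 67 of 774 genes (8.66%) passed in limma, 6 of them higher (0.775%) and 61 lower (7.88%) with the agonist. Since the set was found by leaving out a library seen to differ from the rest of its group, its values are given as a description. In 59 of the 61 lower genes agonist replicate 2 was the highest agonist library, and in 28 it was at or above the lowest blank library. Relative to the blank mean, the median of the 61 genes was -0.46 in agonist replicate 1, -0.63 in replicate 3 and -0.09 in replicate 2 on the log2 scale. These counts and medians largely follow from the choice, since none of the genes passed in the same fit with agonist replicate 2 included. The widest gap was that of SP5, a transcription factor induced by Wnt signalling, at 4.71 and 5.00 TPM in agonist replicates 1 and 3, 13.1 TPM in replicate 2 and 11.5 to 17.2 TPM in blank cells (log2 fold change -1.34 without replicate 2 and -0.92 with all libraries). ZFP36L1, which promotes decay of AU-rich messenger RNAs, was at 69.5 and 46.1 TPM in replicates 1 and 3, 114 TPM in replicate 2 and 119 to 128 TPM in blank cells.

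The acid sphingomyelinase SMPD1 was at 86.6 and 64.5 TPM in agonist replicates 1 and 3, 131 TPM in replicate 2 and 131 to 160 TPM in blank cells. RAI2, a retinoic acid induced nuclear protein, showed the same order at 180, 141 and 274 TPM against 269 to 294 TPM. The mitochondrial FASTK was at 19.2, 15.5 and 27.6 TPM against 26.4 to 32.3 TPM, and the Mediator subunit MED16 at 14.5, 13.5 and 19.4 TPM against 20.2 to 22.2 TPM. ADPRM, a phosphatase of ADP-ribose, was at 6.36 and 6.46 TPM in replicates 1 and 3 and at 13.5 TPM in replicate 2, above every blank library. In limma without agonist replicate 2, the adjusted p of SP5, ZFP36L1, SMPD1, RAI2, FASTK, MED16, ADPRM, POMK, PGP and JMJD8 was 0.0108 each; with all libraries it was 0.249 to 0.387. The antagonist libraries all lay below every blank library for SP5, ZFP36L1, SMPD1, RAI2 and FASTK. For MED16, ADPRM, POMK, PGP and JMJD8 they overlapped the blank libraries. These genes were chosen for low values against the same blank libraries, so the antagonist values are no separate evidence. How often this order held over all tested genes was not counted. The 6 genes higher without agonist replicate 2 were TAX1BP3, CHMP4B, RAB7A, HYPK, ATP5IF1 and PSMG1. In the RefSeq annotation, SP5 overlaps MYO3B, SMPD1 overlaps APBB1, FASTK overlaps SLC4A2, ADPRM overlaps SCO1, POMK overlaps HGSNAT and JMJD8 overlaps STUB1 and WDR24.

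The description labels place agonist replicate 2 and blank replicate 1 on flow cell H77KGDMXX, agonist replicate 3 and blank replicates 2 and 3 on H773TDMXX, and agonist replicate 1 on H75K3DMXX, which held no blank library. The treatment could therefore be compared within 2 flow cells that share no library. The median log2 difference, agonist minus blank, was -0.09 within H77KGDMXX and -0.03 within H773TDMXX. Across the 774 genes the differences in the 2 flow cells were nearly unrelated (Pearson r = 0.01, Spearman rho = -0.16, as a description, since genes of a library share its depth and normalization), and 421 genes differed in opposite directions. Pearson's r includes SMIM15, at -5.42 and -0.94 far from the other genes, and was not computed without it. With the flow cell as a term over all 9 libraries, 0 genes passed in limma (smallest adjusted p = 0.112) and 122 had an unadjusted p under 0.05.

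A difference of 0.5 or more on the log2 scale in the same direction within both flow cells was seen for 12 of the 774 genes, chosen here after their values were seen. In either direction, 48 genes reached this size within H77KGDMXX and 88 within H773TDMXX. Whether the 12 exceed coincidence was not tested. Among those higher in both were CEND1 (1.8 within H77KGDMXX and 0.89 within H773TDMXX), C1QA (1.05 and 0.89), HYPK (0.54 and 1.40), ITGB1BP1 (0.52 and 0.65) and the synaptic protein CPLX3 (0.83 and 0.63). Lower in both were SF3B5 (-1.42 and -0.79), CHAMP1 (-0.60 and -0.86), the mitochondrial GTP-binding protein GTPBP8 (-0.50 and -0.53), the homeobox gene HOXC8 (-0.66 and -1.22), NINJ2 (-0.53 and -0.94) and SMIM15 (-5.42 and -0.94). CPLX3, HOXC8 and NINJ2 were at 3.27 TPM or less in every one of the 6 libraries, and their groups overlapped. C1QA passed the filter only through its agonist libraries, so its place among the 12 follows in part from the filter. SMIM15 was listed at 0 in agonist replicate 2, at 55.0 and 15.9 TPM in agonist replicates 1 and 3 and at 28.9 to 41.9 TPM in blank cells; an exact 0 may be a failed estimate. By contrast, SMPD1, PGP and ZFP36L1 differed by -1.22, -1.13 and -1.44 within H773TDMXX and by -0.01, -0.03 and -0.07 within H77KGDMXX. These genes had passed in the fit without agonist replicate 2, the only agonist library of H77KGDMXX, so this contrast largely restates that choice. Within H77KGDMXX the difference is that library minus blank replicate 1 alone.

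**Figure D4:**
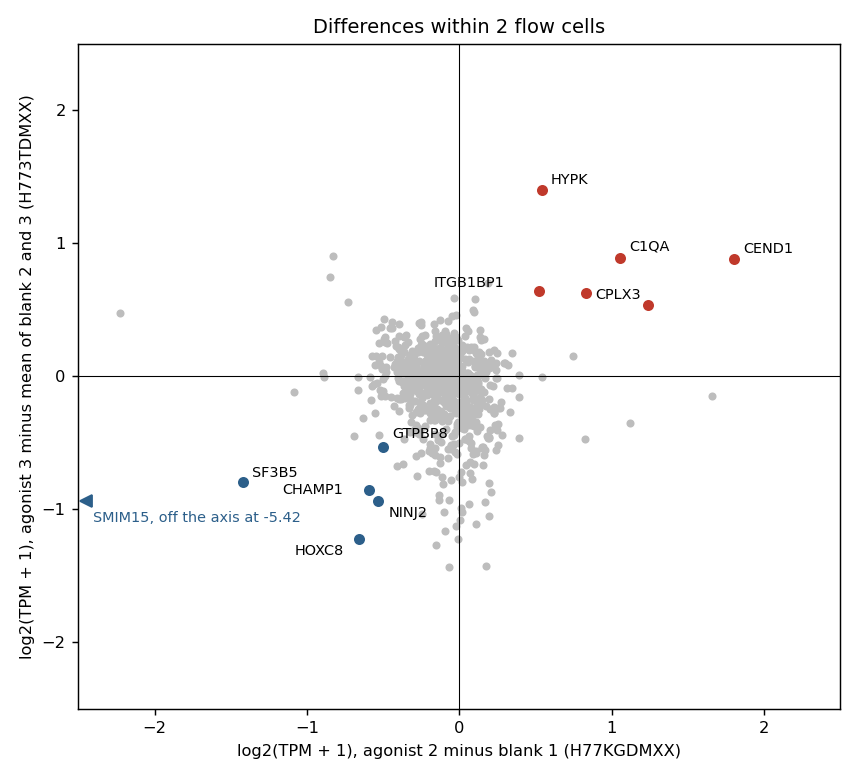
Log2(TPM + 1) differences between agonist and blank libraries of flow cell H77KGDMXX (agonist 2 minus blank 1) against those of flow cell H773TDMXX (agonist 3 minus the mean of blank 2 and 3), one point per tested gene. The 6 red and 6 blue genes differed by 0.5 or more the same way in both, and those named in the text are labelled. SMIM15 lies off the axis at -5.42, and most other genes lie near 0 on at least one axis (Pearson r = 0.01 with SMIM15 included, Spearman rho = -0.16).

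Genes of known roles were described by lists. No list had a gene past the threshold, so counts at an unadjusted p under 0.05 are set beside those over all genes, 1.16% higher and 11.9% lower. Since 75.3% of all tested genes had a log2 fold change under 0, most members of a list under 0 is the general lean. It is no result about a list. In receptor signalling, 3 of the listed genes were tested. DUSP4, a phosphatase that switches off mitogen-activated protein kinases, was at 6.30, 7.0 and 5.48 TPM with the agonist and 7.69, 8.78 and 7.50 TPM in blank cells, lower in every agonist library (log2 fold change -0.31 ± 0.11, limma, adjusted p = 0.272). PLA2G4A, the phospholipase that releases arachidonic acid, was at -0.12.

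Of 7 tested immediate early genes, 6 were under 0, and 3 of these had an unadjusted p under 0.05. Their median log2 fold change was -0.21, and -0.11 with quantile normalization. EGR1 was at 79.1, 95.3 and 77.9 TPM with the agonist and 100.5, 92.5 and 88.9 TPM in blank cells, and the groups overlapped (log2 fold change -0.16 ± 0.09, limma, adjusted p = 0.498). The antiproliferative BTG1 was at 30.0, 29.5 and 37.3 TPM against 47.4, 44.0 and 36.5 TPM, with agonist replicate 3 above blank replicate 3 (-0.39 ± 0.12, limma, adjusted p = 0.251). JUN, at 849 to 1195 TPM over the 6 libraries, was at -0.11, KLF2 at -0.21 and ARC at -0.49, the last resting on 5.54 TPM in blank replicate 1. RHOB, a GTPase, was at 0.03. ZFP36L1, at -0.79, had the lowest value of this list.

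**Figure D5:**
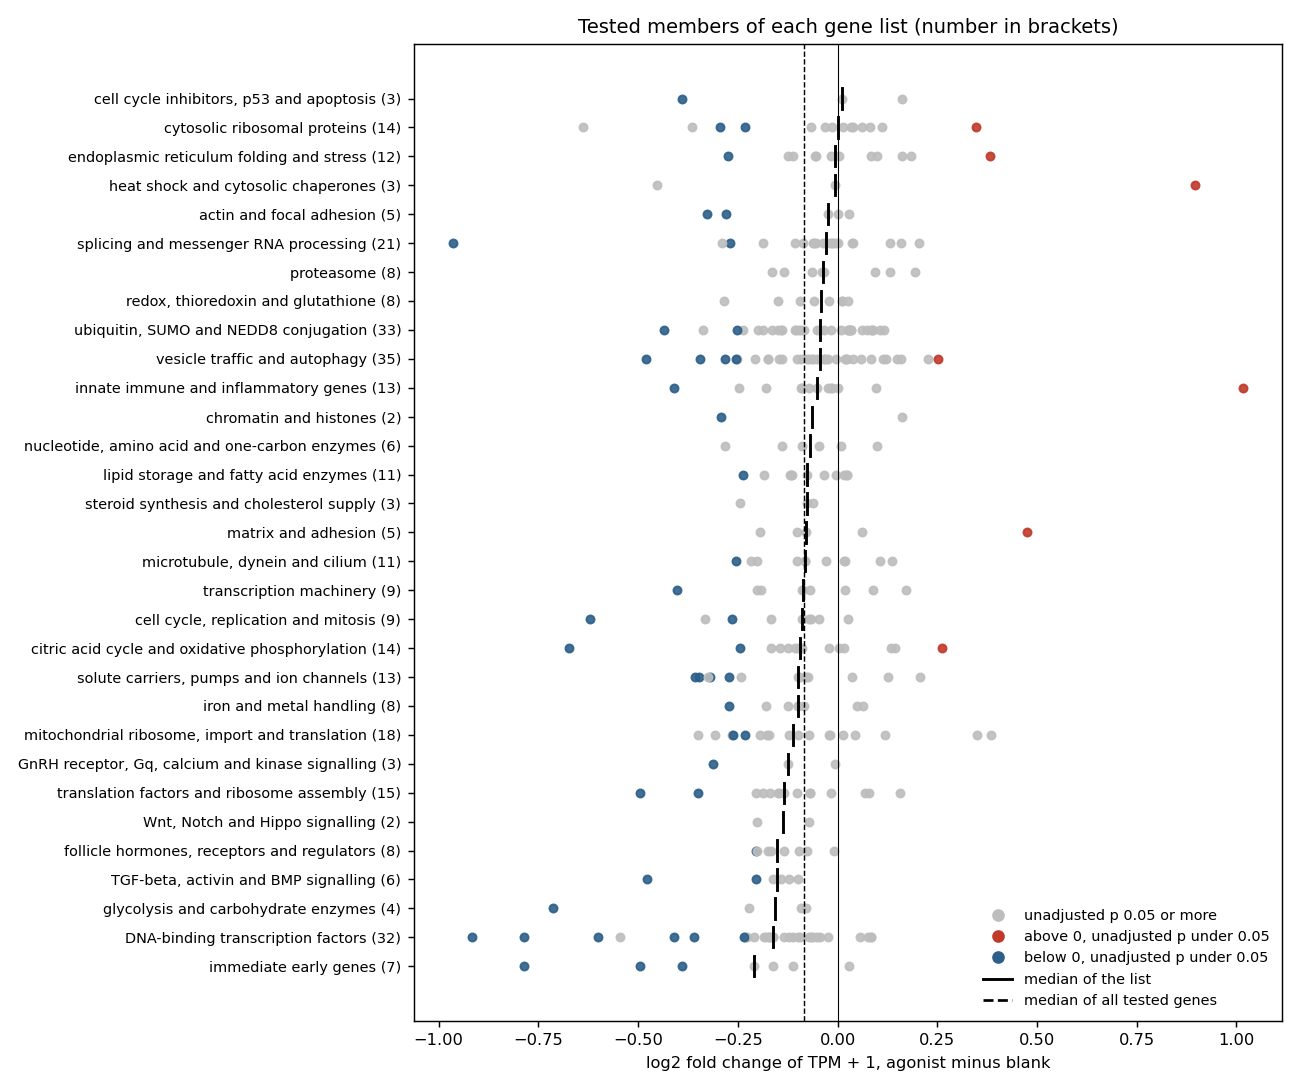
Log2 fold change of TPM + 1, agonist minus blank, for each tested member of 31 gene lists, ordered by the list median (black bar), with the number of tested members in brackets and the median of all genes as a dashed line. Coloured points have an unadjusted p under 0.05 and no adjusted p is under 0.05; the immediate early genes have the lowest median, -0.21.

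All 8 tested follicle hormones and regulators were under 0, between -0.20 and -0.01, with a median of -0.15 (-0.07 with quantile normalization). FST, which binds activin, was at 39.8, 47.8 and 42.2 TPM against 53.7, 48.0 and 48.1 TPM, so that the groups met without overlapping (log2 fold change -0.20 ± 0.09, limma, adjusted p = 0.359). VEGFA, which promotes vessel growth, was at -0.17. Of the 6 tested genes of TGF-beta, activin and BMP signalling, all were under 0 too. The co-receptor ENG had the lowest value (-0.48), at 0.619 to 1.13 TPM against 1.36 to 1.59 TPM. Its blank libraries alone met the filter of 1 TPM in 3 libraries, so its separation follows in part from the filter. SKI was at -0.14 and TGIF1 at -0.16. From cholesterol supply, 3 genes were tested, with a median of -0.08 and DHCR7, the last enzyme of cholesterol synthesis, lowest at -0.24. For the cell cycle, 8 of 9 genes were under 0 with a median of -0.09, that of all genes being -0.08; CENPH, a kinetochore protein, was lower in all agonist libraries at 9.90 to 11.9 TPM against 12.5 to 14.8 TPM (-0.26 ± 0.10, limma, adjusted p = 0.289), and ESPL1, the separase that opens cohesin rings, was at -0.33.

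The list of DNA-binding transcription factors, collected by symbol, held 32 tested genes, 28 of them under 0 and 6 of them lower at an unadjusted limma p under 0.05. The median was -0.16, and -0.05 with quantile normalization. The list also took in members that do not themselves bind DNA as transcription factors. Among them were ZFP36L1, which is in the 6, entered by its symbol and binds RNA, and CBFB, ID4 and ZNF598. CEBPD, a factor induced in the acute phase response, was at 757, 873 and 534 TPM with the agonist and 941, 948 and 931 TPM in blank cells, so the blank libraries lay close together and the agonist libraries did not (-0.41 ± 0.15, limma, adjusted p = 0.288). The zinc finger gene ZBTB25 was lower in all agonist libraries (-0.36), as was CREB3L2, a membrane-bound factor of the secretory pathway (-0.23). Of 13 innate immune genes, C1QA, a subunit of complement C1q made by macrophages, was the highest at a log2 fold change of 1.02. It was at 1.55, 1.97 and 1.2 TPM with the agonist and 0.431 and 0.405 TPM in blank replicates 1 and 2, and was listed at 0 in blank replicate 3. No blank library reached 1 TPM, so C1QA passed the filter only through the agonist libraries. Its separation follows in part from that filter. C1QB, below the filter, was at 0.471, 1.44 and 0.490 TPM against 0.270, 0 and 0.688 TPM, so only agonist replicate 2 stood above the blank libraries. The part of immune cells in any other difference was not tested.

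Genes of the secretory path included members on both sides of 0. Of 12 genes of folding in the endoplasmic reticulum, 6 were above and 6 below 0, with a median of -0.01 (0.09 with quantile normalization). MANF was highest, the disulfide isomerase PDIA6 was at 36.8 to 43 TPM against 32.1 to 35.4 TPM (0.18), and RPN1, a subunit of the oligosaccharyltransferase, was lowest (-0.27). Among 35 genes of vesicle traffic and autophagy, 5 had an unadjusted p under 0.05, with CHMP4B higher and TRAPPC4, EXOC8, VPS18 and ARL6IP5 lower. TRAPPC4, a subunit of a Golgi tethering complex, was at 212, 235 and 180 TPM against 269, 263 and 262 TPM (-0.35 ± 0.10, limma, adjusted p = 0.251). EXOC8, of the exocyst, was at 34.2 to 58.9 TPM against 54.7 to 71.5 TPM and VPS18, which tethers endosomes, at 6.91 to 9.08 TPM against 9.38 to 9.87 TPM.

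For the mitochondria, 14 genes of oxidative phosphorylation and the citric acid cycle had a median of -0.09, beside -0.08 over all genes, and lay between -0.67 for UQCR10 and 0.26 for ATP5IF1. The complex III subunit UQCRFS1 was at 59.1, 61.9 and 57.5 TPM against 75, 69.5 and 67.4 TPM, lower in each agonist library (-0.24 ± 0.08, limma, adjusted p = 0.251). UQCR10, of the same complex, was at 2.16, 3.76 and 1.57 TPM against 4.65, 4.32 and 4.20 TPM, with every agonist library below every blank one; it overlaps ZMAT5 in the RefSeq annotation. The 18 genes of mitochondrial translation and import had a median of -0.11 and spanned -0.35 (MRPL17) to 0.39 (MRPS25), and the groups overlapped for both of these genes.

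The 14 cytosolic ribosomal protein genes divided into 7 above and 7 below 0, with a median of 0.00 (0.10 with quantile normalization). RPS7 was lower in all agonist libraries at 20.8, 25.9 and 23.4 TPM against 30.3, 27.6 and 28.5 TPM (-0.29 ± 0.09, limma, adjusted p = 0.251), RPL8 was at -0.23 and RPL37A, at 1.2 to 2.64 TPM, at 0.35. RPS20 had the lowest value (-0.64) but was listed at 0 in agonist replicate 1 and was at 2.09 TPM or less elsewhere. Reads of ribosomal protein genes can be shared with near-identical copies, and how the authors assigned them is not stated in the labels. Of 15 translation factors and ribosome assembly genes, 12 were under 0. NOB1, the endonuclease that matures the small subunit RNA, was at 0.724 to 0.916 TPM against 1.2 to 1.79 TPM. It passed the filter of 1 TPM only through the blank libraries, so its separation follows in part from the filter. EIF4EBP2, a repressor of cap-dependent translation, was at -0.35. The 8 genes of the proteasome list, which also took in PSMC3IP, not itself a proteasome gene, had a median of -0.04. The median of the 33 genes of ubiquitin conjugation was also -0.04, with TRIM54 at -0.44 as the lowest. The 21 genes of splicing and messenger RNA processing had a median of -0.03; after SF3B5 the next lowest was RBM24 at -0.29.

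The lists of structure and metabolism were small. ITGB1BP1 was the highest of 5 matrix and adhesion genes, whose median was -0.08, and among 5 actin and focal adhesion genes PDLIM4 (-0.33) and ZYX (-0.28) were lower at an unadjusted p under 0.05. Of 13 transporters and channels, 10 were under 0, near the 75.3% of all genes. At an unadjusted limma p under 0.05, 4 of the 13 were lower, against 11.9% of all genes, and whether this exceeds the general lean was not tested. The lysosomal peptide transporter ABCB9 was lowest at -0.36. PGP was the lowest of 4 carbohydrate enzymes and the glycogen primer GYG1 was at -0.22. The 8 genes of the redox list spanned -0.28 (the deacetylase SIRT3) to 0.03 (SIRT7, a nuclear deacetylase), and the 8 iron and metal genes -0.27 (the iron importer SLC25A28) to 0.06 (NFU1). That redox list also took in TXNL4B, which is in the splicing list as well. Ferritin heavy chain FTH1, at 982 to 1355 TPM, was at -0.18. Among 11 genes of lipid storage and fatty acids, ACOT7 was lowest at -0.24, and ANGPTL4, which inhibits lipoprotein lipase, was at 156 to 192 TPM against 172 to 196 TPM (-0.08).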

How the data were processed

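RNA libraries were made from total RNA with a NEBNext Ultra kit, per the labels' protocols. StringTie 1.2.2, Cufflinks 2.2.1, Cuffdiff, TopHat2 2.1.0 and CASAVA 1.8.2 stand in the submitters' processing notes with no role stated; the genome build, the annotation and any use of strand were not given in the sources used here. The authors deposited TPM values for 1371 genes, one column per library, which were used as they stand. TPM keeps no depth, so no counting error can be given. Of these genes, 597 fell below the filter, and 68 of those had only zeros in the 6 libraries.

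The scale was log2(TPM + 1). Agonist and blank were compared with limma 3.58.1 in R 4.3.3, in a linear model of 3 groups over all 9 libraries with empirical Bayes moderation and a variance trend, and Benjamini-Hochberg adjustment over the 774 genes at 0.05. Intervals are unadjusted 95% intervals. Gene lists (38, of which 34 had tested members) were written from general knowledge or by symbol pattern. Members, lists and tests were chosen with earlier results of these data known. Named genes were, among genes at 5 TPM or more in a group, the 10 of smallest p and the 5 of largest fold change without overlap in each direction, the 10 of smallest adjusted p in a fit without 1 library that called 10 or more, and the 5 most variable; to these came the 5 most abundant genes and, from each list, its ends and its most abundant member; all others were named after their values were seen. A few genes are not reported here. Of the symbols, 1255 matched RefSeq's annotation of a Taihu goose assembly, used for overlapping genes only.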

Additional observations from a re-analysis of the deposited data

How the results depend on the processing

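The count of genes past the threshold was 0 with all libraries and also 0 in the fit of only the 6 libraries, with a flow cell term, with pseudocounts of 0.1 and 0.5, without a filter, with a mean of 5 TPM or more, under upper quartile, median of ratios and quantile scaling, without a variance trend, and with the flow cell that held no blank library left out (chosen after seeing the data). It was 18 with library weights, all of them lower and all among the 67 found without agonist replicate 2. Leaving out 1 library gave 0 to 67; the fit without antagonist replicate 3 called 1 gene, CEND1. With the flow cell term and without agonist replicate 2, also chosen after seeing the data, 95 genes passed, 59 of them among the 67. The replicate block gave 5 (CEND1, HYPK and C1QA higher, SF3B5 and PGP lower), of which C1QA had passed the filter only through its agonist libraries. Same-numbered libraries, however, deviated together with correlations of -0.04, 0.09 and -0.12, so the numbers were not taken to pair the libraries. At an unadjusted p under 0.05, where 9 genes were higher and 92 lower, upper quartile scaling gave 32 higher against 38 lower, median of ratios 31 against 41 and quantile normalization 43 against 41, and the median log2 fold change moved from -0.08 to 0.01, 0.01 and 0.02. These scalings are computed from the listed genes themselves and take out a shift that most of them share. Without 1 agonist or blank library, the median log2 fold change was -0.12 to -0.04. Of 96 named genes, 73 did not take the opposite sign in any alternative setting that tested them (23, or 22 for genes averaging under 5 TPM). TIMM10 was at 0 with quantile normalization, and no named gene passed with the opposite sign. Leaving out antagonist libraries or the variance trend, adding the replicate block or changing the filter could not alter a gene's fold change. The sign was fixed in those settings, and many genes were named for their values in these same data. The unknown depth and 3 libraries a group limit what could be detected, above all for genes under 5 TPM.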
